A study of Mus musculus with 7 samples.

Results

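The genes described here are the core of the Hedgehog signaling pathway, *Shh*, *Ptch1*, *Smo*, *Gli1*, *Gli2*, *Gli3*, *Hhip*, *Gas1* and *Boc*, measured by RNA-seq in the outflow tract (OFT) of the mouse embryo. They were chosen by name, and 8 of the 9 were among the 14732 genes listed with values. *Shh* itself, the ligand, was not analysed here, since the table holds genes that reached 1 CPM (the reads of a gene scaled to the size of its library) in at least 3 pools. OFTs were dissected at embryonic day 11.5 and pooled before RNA extraction, giving 3 control pools (replicates 3, 4 and 5, labelled wild type) and 4 Gata6STOP/+ pools (replicates 1, 3, 4 and 5). The STOP allele is a germline frameshift in exon 2 of *Gata6*, made by CRISPR-Cas9 in C57BL/6 mice, so each cell of the embryo carried 1 mutant copy. The line goes back to 1 selected founder that was crossed to C57BL/6. The study's design text speaks of 3 pools of 4 pairs of OFT per genotype, whereas the labels give 4 mutant pools. The study's list of editing reagents names *Mib1* alleles beside the line, and the labels do not say whether these embryos carried one. The pools hold different embryos, and the *P*-values below measure the spread between pools.

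Hedgehog ligands are lipid-modified secreted proteins. In their absence the receptor Patched holds the transmembrane protein Smoothened inactive at the primary cilium, and GLI3 (with GLI2 in part) is processed to a repressor. When ligand binds Patched, assisted by the coreceptors GAS1, BOC and CDON, Smoothened becomes active and GLI proteins switch on target genes. *Gli1*, *Ptch1* and *Hhip* are such targets in many tissues and are widely read as a measure of pathway activity, and the latter pair encode proteins that dampen the signal. In the embryo, Sonic hedgehog from the pharyngeal and foregut endoderm acts on the adjoining mesenchyme and on the second heart field, which supplies cells to the OFT.

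The means of the 3 target genes *Hhip*, *Gli1* and *Ptch1* were higher in Gata6STOP/+ than in control OFTs, while those of *Smo*, *Gli2*, *Gli3* and *Gas1* lay within 3% of the control mean. The mean of *Boc*, at 118% of the control mean, was close to that of *Ptch1*, at 119%. No difference passed the threshold of 0.05 after adjustment over all genes. With limma on log2(CPM + 0.5), 0 of the 8 listed genes and 0 of all 14732 genes (0%) had an adjusted *P* under 0.05. At an unadjusted *P* under 0.05, 3 of the 8 were higher and 0 lower in the mutant, against 615 (4.17%) higher and 572 (3.88%) lower among all genes. With 1 pool left out, the members at this level numbered from 0 (without control replicate 3) to 4 (without mutant replicate 3). In 1 of the 8, *Hhip*, all mutant pools lay above all control pools, and in 0 all lay below. Among all genes, 635 (4.31%) had all mutant pools above and 613 (4.16%) all below. The median log2 fold change was 0.12 over the 8 genes and -0.00073 over all genes. The genes were picked with earlier results of these data known, so these counts describe them and carry no test. The tissue was bulk, so fewer cells of a type and less RNA per cell cannot be told apart in any of these values.

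**Figure D1:**
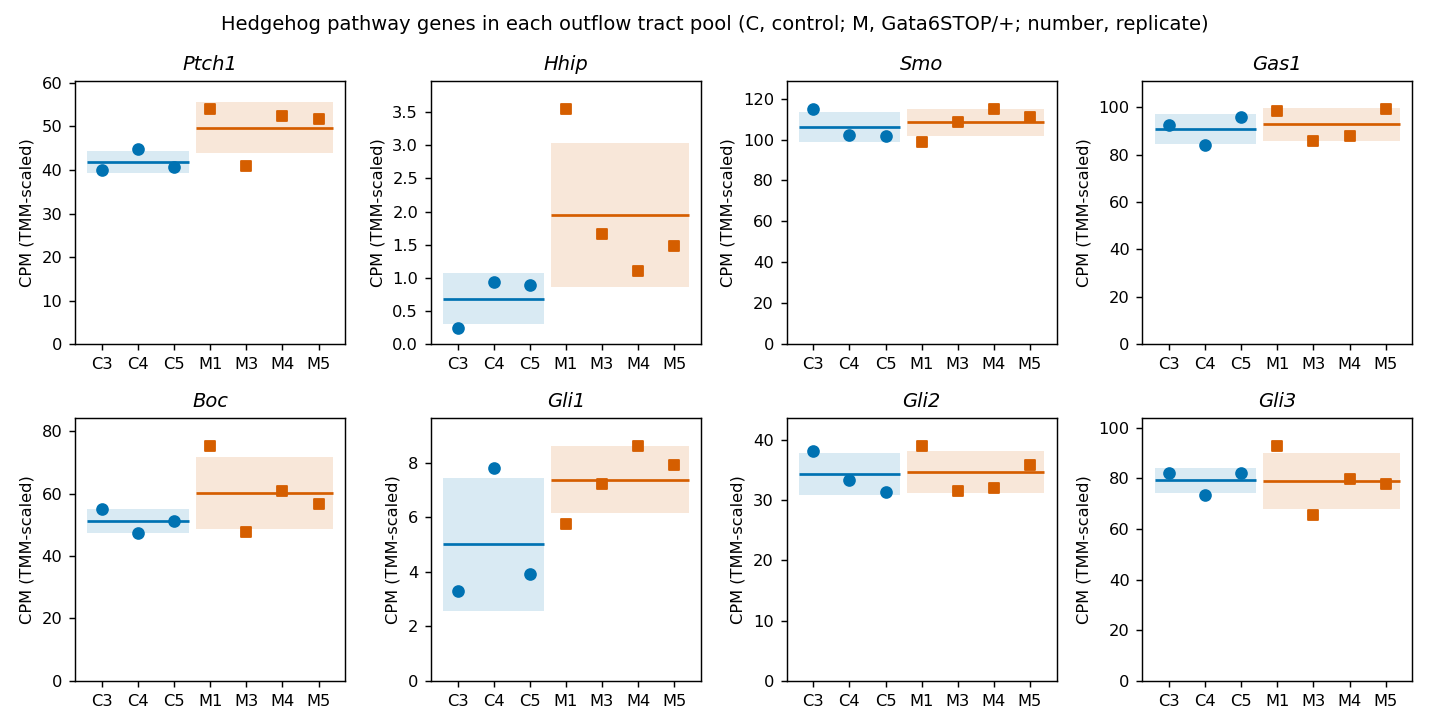
CPM (vertical axis, from 0) of the 8 listed Hedgehog genes in each pool. Circles are the control pools (C3, C4, C5) and squares the Gata6STOP/+ pools (M1, M3, M4, M5), lines are group means and shaded bands are ±1 s.d. *Hhip* is the panel in which the groups do not overlap, and in *Gli1* control replicate 4 lies among the mutant pools.

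The controls held between 17783655 and 29035529 reads, and the mutants between 24736761 and 34467710. *Gata6*, the edited gene, was at 257 to 315 CPM in controls and 203 to 268 CPM in mutants. Its log2 fold change was -0.34 (SE 0.099, unadjusted *P*=0.0058, adjusted *P*=0.39, limma). Its groups overlapped, with 3 of the 4 mutant pools below all controls. The paper reports *Gata6* as lower in the mutant by its own RNA-seq test and by quantitative PCR. Markers of the labelled tissue were present, with 8 of 8 cardiomyocyte, 8 of 8 endothelial and 6 of 6 smooth muscle genes listed. The 4 Y-linked genes differed between pools. Their summed level was 39.9 to 93.4 CPM in controls (lowest in replicate 4) and 70.4 to 174 CPM in mutants (lowest in replicate 3), and their values accompany the results below.

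Per kilobase of annotated exon, the control levels fell in the order *Gas1*, *Smo*, *Boc*, *Gli3*, *Gli2*, *Ptch1*, *Gli1* and *Hhip*. *Gas1* was at 30.7±2.08, *Smo* at 18.9±1.31 and *Boc* at 11.5±0.875 CPM per kb (mean±s.d., n=3). *Gli3* was at 8.27±0.517, *Gli2* at 4.99±0.512 and *Ptch1* at 2.95±0.185 CPM per kb. The pathway's target readouts stood lowest, *Gli1* at 1.003±0.488 and *Hhip* at 0.0759±0.0429 CPM per kb. No neighbours in this order had overlapping control ranges. Per kilobase, the coreceptors and Smoothened were thus the most abundant transcripts of the set in control OFTs, and the targets the least. The order depends on the exon length used. In CPM alone, the control mean of *Ptch1* (41.82) was above that of *Gli2* (34.25), and that of *Gli3* (79.32) above that of *Boc* (51.17).

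The promoters of *Ptch1* and *Hhip* are shown because these targets encode the proteins that feed back on the ligand, and both had higher means in the mutant. Each run is the 250 bases before the RefSeq start of the gene, 5' to 3' on the gene's strand (build GRCm38.p6), and capitals mark CG dinucleotides. The *Ptch1* stretch is on the minus strand of chromosome 13, chr13:63565736-63565985, inside the GENCODE span of the gene but outside annotated exons. The *Hhip* stretch is on the minus strand of chromosome 8, chr8:80058009-80058258, upstream of the gene.
Ptch1: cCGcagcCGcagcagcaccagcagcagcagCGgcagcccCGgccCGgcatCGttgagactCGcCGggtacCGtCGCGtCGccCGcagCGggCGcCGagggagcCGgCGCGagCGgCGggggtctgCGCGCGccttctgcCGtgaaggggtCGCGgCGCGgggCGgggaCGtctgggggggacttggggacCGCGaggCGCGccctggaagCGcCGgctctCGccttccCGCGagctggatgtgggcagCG
Hhip: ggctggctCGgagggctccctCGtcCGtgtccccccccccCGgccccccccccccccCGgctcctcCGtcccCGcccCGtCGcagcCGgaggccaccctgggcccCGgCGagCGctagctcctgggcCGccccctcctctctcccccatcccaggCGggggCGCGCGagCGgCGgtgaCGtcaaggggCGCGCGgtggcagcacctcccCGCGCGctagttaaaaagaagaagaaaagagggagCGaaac
The *Ptch1* stretch holds 41 CG dinucleotides with a GC content of 78.4%, and the *Hhip* stretch 28 with 76.0%. Over the 32851 promoters of the same length the medians are 6 and 52.4%. Both stretches lie well above these medians. Promoters of 6 of the genes (*Ptch1*, *Smo*, *Gli2*, *Gli3*, *Hhip* and *Gas1*) were searched on both strands for the GLI consensus GACCACCCA and for the GATA consensus AGATAA, with T also allowed as its first and G as its last letter. The GLI letters occur in 74 (0.225%) and the GATA letters in 8718 (26.5%) of all promoters, and 0 of the 6 hold either in this window.

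*Ptch1* (ENSMUSG00000021466) encodes the Hedgehog receptor, which restrains Smoothened and is itself induced by the pathway. The gene lies on chromosome 13 (63508328 to 63573598, GRCm38). Controls (replicates 3, 4 and 5) gave 40.0, 44.8 and 40.7 CPM of *Ptch1*. Mutants gave 54.0, 41.0, 52.4 and 51.6 CPM (replicates 1, 3, 4 and 5). Mutant pools 1, 4 and 5 lay above all controls, and mutant pool 3 lay within the control range. The mean was 41.8±2.62 CPM (n=3) against 49.8±5.93 CPM (n=4), a log2 fold change of 0.24 (SE 0.096, unadjusted *P*=0.0292, adjusted *P*=0.554, limma). An exact two-sided permutation test over the pools gave *P*=0.114 for *Ptch1*. Left out in turn, the pools gave log2 fold changes of 0.20 to 0.33, with the highest value without mutant replicate 3. With the mean Y-linked level as a covariate, added after the values were seen, the value was 0.13 (unadjusted *P*=0.336, limma). The part of the Y-linked difference in the result was not tested further.

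*Hhip* (ENSMUSG00000064325, chromosome 8, 79965851 to 80058006) encodes a membrane glycoprotein that binds Hedgehog ligands and keeps them from Patched. Controls were at 0.240, 0.932 and 0.896 CPM (replicates 3, 4 and 5), and mutants at 3.54, 1.67, 1.10 and 1.48 CPM (replicates 1, 3, 4 and 5). All 4 mutant pools lay above all 3 controls, with mutant replicate 1 far above the rest and control replicate 3 far below. Few reads stand behind these values, 5, 27 and 16 in the controls and 101, 46, 27 and 51 in the mutants. The mean was 0.689±0.390 CPM (n=3) against 1.95±1.09 CPM (n=4), or 283% of the control mean. The log2 fold change was 1.01 (SE 0.339, 95% interval 0.26 to 1.76, unadjusted *P*=0.0128, adjusted *P*=0.466, limma). An exact two-sided permutation test over the 35 ways to part the pools gave *P*=0.0571 for *Hhip*. That is the smallest value this form of the test, which doubles the smaller tail, can give here. The size depended on the constant added before the logarithm, being 1.41 with 0.1 and 0.53 with 2, and 1.48 in edgeR's quasi-likelihood test on the reads. Without control replicate 3 it was 0.70, and without mutant replicate 1 it was 0.74.

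The coreceptors bind the ligand and present it to Patched. *Gas1*, a membrane-anchored protein gene on chromosome 13, was at 84.0 to 96.0 CPM in controls and 85.6 to 99.1 CPM in mutants, with overlapping groups. Its log2 fold change was 0.030 (95% interval -0.13 to 0.19). *Boc*, a cell surface protein of the immunoglobulin family encoded on chromosome 16, was at 55.1, 47.3 and 51.1 CPM in controls and 75.2, 47.8, 60.9 and 56.6 CPM in mutants (replicates 1, 3, 4 and 5). Mutant pools 1, 4 and 5 were above all controls, as for *Ptch1*, and mutant pool 3 was within their range. The *Boc* log2 fold change was 0.21 (SE 0.126, unadjusted *P*=0.117, adjusted *P*=0.720, limma), 0.10 without mutant replicate 1, and -0.062 with the Y-linked covariate.

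*Smo*, which encodes the signal transducer Smoothened, was at 115, 102 and 102 CPM in controls and 99.0, 109, 115 and 111 CPM in mutants. The groups overlapped over nearly their whole range. The log2 fold change of *Smo* was 0.027 (SE 0.069, 95% interval -0.13 to 0.18, adjusted *P*=0.944, limma).

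The GLI transcription factors split between the target *Gli1* and the pair that are set before the signal arrives. *Gli1* (ENSMUSG00000025407, chromosome 10, 127329882 to 127341974) encodes an activator that is itself switched on by the pathway. Controls were at 3.31, 7.80 and 3.92 CPM (69, 226 and 70 reads) and mutants at 5.75, 7.25, 8.62 and 7.94 CPM (164, 200, 212 and 273 reads). Control replicates 3 and 5 lay below all mutant pools, whereas control replicate 4 lay above mutant replicates 1 and 3. The mean was 5.01±2.44 CPM (n=3) against 7.39±1.23 CPM (n=4), a log2 fold change of 0.59 (SE 0.242, unadjusted *P*=0.0329, adjusted *P*=0.569, limma). The exact permutation test gave *P*=0.171 for *Gli1*. The log2 fold change turned on the control pools, 0.93 without replicate 4 (adjusted *P*=0.106) and 0.37 without replicate 3 (adjusted *P*=0.908, limma). Control replicate 4 was also the pool with the lowest Y-linked sum, and with the Y-linked covariate the *Gli1* value was 0.96 (adjusted *P*=0.350, limma). Exons of *Gli1* overlap those of *Arhgap9* on the opposite strand. The library kit marks strand, but the strand setting of the counting is not given in the sources used here, so reads of the pair may be mixed. *Arhgap9* was at 0.727 to 1.66 CPM over all pools.

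*Gli2*, encoding the main activator of the early response, was at 31.4 to 38.2 CPM in controls and 31.5 to 38.9 CPM in mutants, with a log2 fold change of 0.013 (SE 0.095, 95% interval -0.20 to 0.22). *Gli3*, whose product acts largely as a repressor, was at 82.0, 73.6 and 82.3 CPM in controls and 92.8, 65.5, 79.7 and 77.9 CPM in mutants. Mutant replicate 1 was the highest and mutant replicate 3 the lowest of the 7 pools for *Gli3*. The *Gli3* log2 fold change was -0.015 (SE 0.102, 95% interval -0.24 to 0.21, adjusted *P*=0.982, limma), and -0.24 with the Y-linked covariate (unadjusted *P*=0.0366). Exons of *Gli3* and of *Gas1* overlap listed genes on the other strand, *Gm6556* and *Gm48488*, which were at 0.966 to 1.57 and 0.772 to 1.49 CPM over all pools, and those of *Hhip* overlap *Gm27820*, not among the listed genes.

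**Figure D2:**
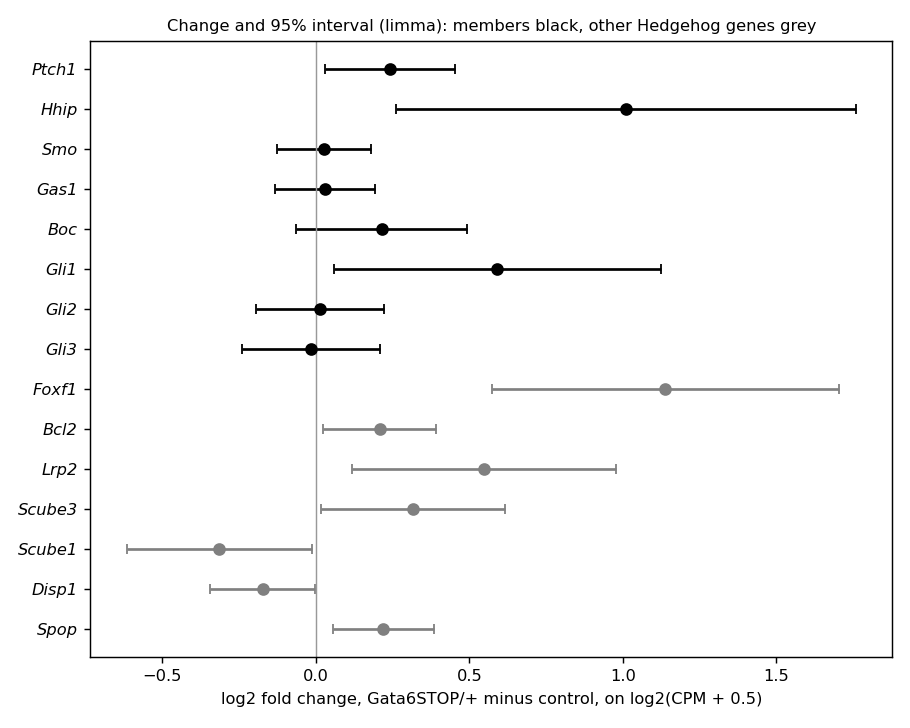
Log2 fold change (Gata6STOP/+ minus control, on log2(CPM + 0.5)) with its 95% interval from limma for the 8 listed members (black) and 7 other Hedgehog genes with an unadjusted *P* under 0.05 (grey). The intervals of *Ptch1*, *Hhip* and *Gli1* lie above 0, and those of *Smo*, *Gas1*, *Boc*, *Gli2* and *Gli3* include 0.

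The pools did not order the members alike. Mutant replicate 1 was the highest of the 7 pools for *Ptch1*, *Hhip*, *Boc*, *Gli2* and *Gli3*, but the lowest mutant pool for *Gli1* and *Smo*. Its 8 cardiomyocyte genes summed to 13110 CPM, against 16050 to 18300 CPM in the other pools, and its second heart field genes to 446 CPM, the highest of the 7. The part of this makeup in the Hedgehog values was not tested. Mutant replicate 3 was the lowest mutant pool for *Ptch1*, *Gas1*, *Boc*, *Gli2* and *Gli3*. Control replicate 3 was the lowest pool for *Ptch1*, *Gli1* and *Hhip*. Over the 7 pools, the log2(CPM + 0.5) values of *Gli1* had a Pearson *r* of 0.60 (Spearman's rho 0.64) with *Ptch1* and 0.48 (rho 0.39) with *Hhip*, and of -0.33 with *Gli2* and -0.42 with *Gli3*. Among the 11626 genes whose mean reached 5 CPM, the profiles most like *Gli1* were those of *Gm14288* (*r*=0.966), *Zfp111* (0.964), *Celf1* (0.963), *Zfp397* (0.963) and *Nufip2* (0.961). Without the 2 pools farthest from the *Gli1* median, *r* was 0.746 to 0.873 for these genes. These values were picked as the highest of many over 7 pools that share their depth and group, and they are descriptions.

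**Figure D3:**
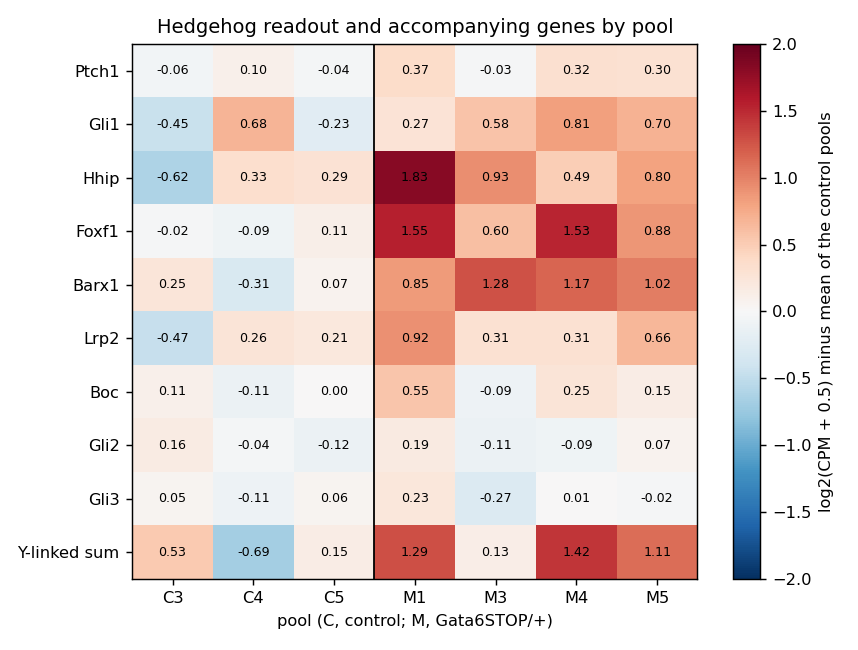
Log2(CPM + 0.5) in each pool minus the mean of the 3 control pools (color scale and printed values) for 6 members, for 3 other genes named in the text and for the summed Y-linked genes. *Gli1* in control replicate 4 is 0.68 above the control mean, *Hhip* is highest in mutant replicate 1 at 1.83, and the Y-linked sum is lowest in control replicate 4 at -0.69.

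The wider pathway was described by 5 lists holding 73 genes, of which 68 were listed. In all, 34 had a positive and 34 a negative log2 fold change, with a median of 0.0023. At an unadjusted *P* under 0.05, 8 were higher and 2 lower in the mutant (4.17% and 3.88% of all genes), and 0 passed after adjustment (limma). In 4 (*Hhip*, *Lrp2*, *Foxf1* and, by 0.090 on the log2 scale, *Csnk1a1*) all mutant pools lay above all controls. In 3 (*Disp1*, *Grk2* and *Evc2*) all mutant pools lay below. Among all genes these shares were 4.31% and 4.16%, near those of the lists. These lists, too, were written with earlier results known. They include the 8 listed members, which gave 3 of the 8 higher genes. Without the members, 27 of 60 genes had a positive and 33 a negative log2 fold change, with a median of -0.0089. Of these 60, 5 were higher and 2 lower at an unadjusted *P* under 0.05 (limma).

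Of 8 genes for ligands and their release, 6 were listed. *Dhh*, the desert hedgehog ligand, was at 17.9 to 27.1 CPM in controls and 20.8 to 27.5 CPM in mutants (log2 fold change 0.17, adjusted *P*=0.790, limma), and *Ihh* was not analysed here. *Disp1*, which exports lipid-modified ligand from the producing cell, was at 26.3, 23.4 and 22.6 CPM in controls and 20.8 to 21.8 CPM in mutants, all mutant pools being below all controls. Its log2 fold change was -0.17 (SE 0.078, unadjusted *P*=0.0481, adjusted *P*=0.611, limma), and -0.11 without control replicate 3. The secreted SCUBE proteins help release ligand, and the 3 genes had values of both signs. *Scube1* had a log2 fold change of -0.31 (SE 0.136), *Scube3* of 0.32 (SE 0.136), and *Scube2* of -0.42 (SE 0.209), with adjusted *P*=0.598, 0.595 and 0.663 (limma). *Scube1* was -0.17 without control replicate 3. With the Y-linked covariate *Scube1* was -0.56 and *Scube3* 0.15.

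All 8 receptor and coreceptor genes were listed. At an unadjusted *P* under 0.05, 3 of them (*Ptch1*, *Hhip* and *Lrp2*) were higher in the mutant (4.17% of all genes were, limma). *Ptch1* and *Hhip* are members already counted above. *Lrp2* encodes megalin, an endocytic receptor that binds SHH. It was at 8.49, 14.4 and 13.8 CPM in controls and 23.0, 14.9, 14.9 and 19.1 CPM in mutants, so that the groups did not overlap but control replicates 4 and 5 came close to mutant replicates 3 and 4. The *Lrp2* log2 fold change was 0.55 (SE 0.195, adjusted *P*=0.505, limma), and 0.31 without control replicate 3. *Cdon*, the partner of *Boc*, had 0.12 (adjusted *P*=0.803, limma).

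All 24 genes for transduction and GLI regulation were listed, and 22 of them lay within 0.2 of 0 on the log2 scale (12295 of all 14732 genes did). The exceptions were *Gli1* and *Spop*, an adaptor that marks GLI proteins for degradation, at 70.5 to 83.8 CPM in controls and 81.8 to 93.7 CPM in mutants (log2 fold change 0.22, SE 0.074, adjusted *P*=0.466, limma). *Sufu*, which holds GLI proteins inactive in the cytoplasm, had 0.050. All 22 genes of ciliary transport were listed and within 0.2 of 0, from -0.11 to 0.18, and 0 had an unadjusted *P* under 0.05.

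Of 15 target genes, 12 were listed, 8 with a positive and 4 with a negative log2 fold change (median 0.19). Among all 14732 genes, 7339 were positive and 7393 negative. At an unadjusted *P* under 0.05, 5 were higher (*Foxf1*, *Hhip*, *Gli1*, *Ptch1* and *Bcl2*) and 0 lower (4.17% and 3.88% of all genes, limma). Of these 5, *Hhip*, *Gli1* and *Ptch1* are members already counted above. The list was written with earlier results known, so its counts carry no test. *Foxf1*, a forkhead transcription factor gene of the splanchnic mesenchyme, was at 0.671, 0.621 and 0.784 CPM in controls and 2.98, 1.30, 2.93 and 1.69 CPM in mutants. Every mutant pool was above every control, and the controls were tightly grouped. Few reads stand behind these values, 14, 18 and 14 in the controls and 85, 36, 72 and 58 in the mutants. The *Foxf1* log2 fold change was 1.14 (SE 0.256, unadjusted *P*=0.00103, adjusted *P*=0.243, limma). It passed the threshold in edgeR's likelihood ratio test (adjusted *P*=0.00566) and in DESeq2 (adjusted *P*=0.0110), but not in the quasi-likelihood test (adjusted *P*=0.231). With the Y-linked covariate it was 0.71 (adjusted *P*=0.522, limma). The *Foxf1* value also depended on the constant added before the logarithm, being 1.48 with 0.1 and 0.63 with 2. In edgeR's quasi-likelihood test it was 1.69. *Bcl2*, which protects cells from apoptosis, was at 28.3 to 32.6 CPM in controls and 31.5 to 37.8 CPM in mutants (log2 fold change 0.21, adjusted *P*=0.557, limma). *Ccnd1* had -0.085 and *Bmp4* 0.13, both with overlapping groups.

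The summed level of the splanchnic and foregut mesenchyme list was higher in each mutant pool than in each control. In limma, 0 of its genes passed the adjusted threshold. Of 9 genes for splanchnic and foregut mesenchyme 7 were listed, *Foxf1* and *Barx1* among them, summing to 88.3 to 100.4 CPM in controls and 113 to 128 CPM in mutants, without overlap, and 4 of the 7 had an unadjusted *P* under 0.05, all higher (4.17% of all genes were). *Barx1*, a homeobox gene of foregut mesenchyme, was at 3.04 to 4.70 CPM in controls and 7.40 to 10.1 CPM in mutants (log2 fold change 1.08, SE 0.158, adjusted *P*=0.0970, limma). It passed the threshold in edgeR's likelihood ratio test (adjusted *P*=1.2e-05) and in DESeq2 (adjusted *P*=6.3e-06), but not in the quasi-likelihood test (adjusted *P*=0.171). *Hand1* made up most of the sum, at 57.6 to 74.1 against 76.8 to 89.5 CPM (log2 fold change 0.41, adjusted *P*=0.246, limma). The sum thus largely follows *Hand1*. The list was written with earlier results known, and the paper names *Foxf1* and *Hand1* among its changed genes, so the count of 4 carries no test. *Tbx4* and *Tbx5* had -0.11 and -0.10. Of 14 genes for pharyngeal and foregut epithelium, the tissue that makes the ligand, 5 were listed (*Krt8*, *Krt18*, *Krt19*, *Sox2* and *Cldn4*), summing to 113 to 185 CPM in controls and 132 to 182 CPM in mutants, with 0 at an unadjusted *P* under 0.05. The defining markers *Shh*, *Foxa2*, *Epcam* and *Nkx2-1* were not among the listed genes. In the second heart field list, 7 of 7 listed genes of 8 had a positive log2 fold change (7339 of all 14732 genes did). They summed to 372 to 401 CPM in controls and 396 to 446 CPM in mutants, with overlap. The neural crest and glia list, with 5 of 7 listed, summed to 81.8 to 115 CPM in controls and 68.5 to 80.7 CPM in mutants, without overlap. Of its 5 genes, 3 had a negative log2 fold change (7393 of all genes did). The part of these cell types in the Hedgehog values was not tested.

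**Figure D4:**
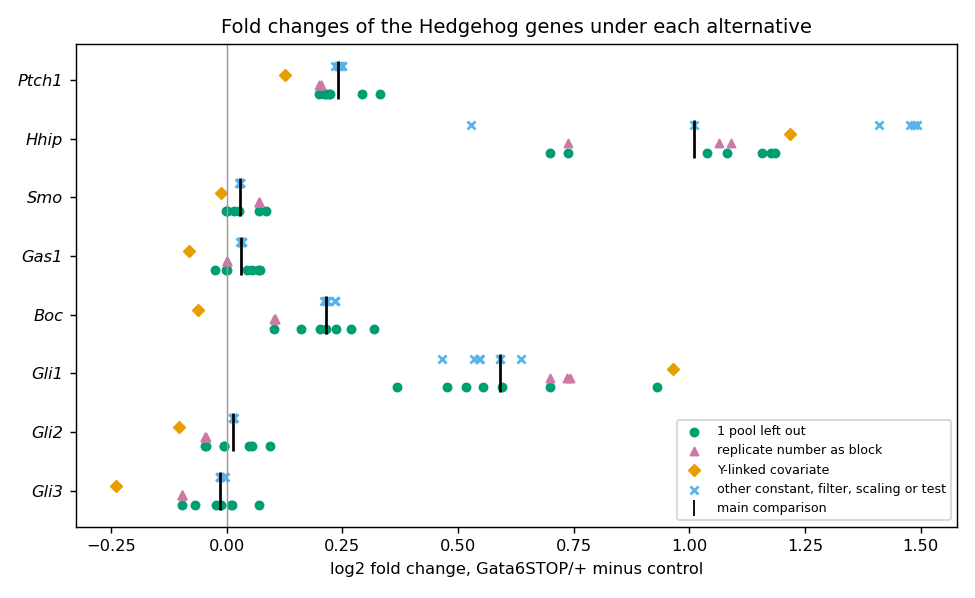
Log2 fold change of each member (rows) in the main comparison (black bars) and under each alternative (colored symbols). *Ptch1*, *Hhip* and *Gli1* stay above 0 under all alternatives, *Hhip* ranging from 0.53 to 1.49 and *Gli1* from 0.37 to 0.96, while *Smo*, *Gas1*, *Boc*, *Gli2* and *Gli3* have values on both sides of 0.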

How the data were processed

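RNA-seq was performed on polyA RNA of 3 control and 4 Gata6STOP/+ OFT pools with a strand-marking kit and single-end reads. Per the labels, the submitters' processing used bcl2fastq, cutadapt, RSEM and edgeR with GRCm38. The deposited values are CPM, which the authors scaled to TMM-adjusted library sizes, 1 column per pool, and all 14732 genes had at least 1 CPM in at least 3 pools, as in the study's filter. Each value divided by what 1 read is worth gave whole reads for 100% of values (tolerance 0.01 read), and these recovered reads were used in count tests. No column was left unused.

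Genes were tested with limma 3.58.1 (R 4.3.3; lmFit, eBayes with trend) on log2(CPM + 0.5), two-sided, over all 7 pools without covariates, with Benjamini-Hochberg adjustment over all genes and a threshold of 0.05. The constant makes fold changes of low genes smaller. Alternatives were constants of 0.1 and 2, a filter on means under 5 CPM, median-of-ratios scaling, a block for the replicate number, edgeR 4.0.16 and DESeq2 1.42.0 on recovered reads, and each pool left out. The Y-linked covariate was added after the data were seen. The limma, edgeR and DESeq2 fits were tested on simulated data. Exact permutation tests (scipy 1.17.1) were computed for the 8 listed members. The members and lists were chosen with earlier results of these data known. Named were the members, other Hedgehog genes with an unadjusted *P* under 0.05, or with groups that did not overlap and an absolute log2 fold change of at least 0.3, *Gata6*, the 5 genes most like *Gli1*, and markers of other cell types beside results they moved with (*Barx1* and *Hand1*). *Dhh*, *Scube2*, *Cdon*, *Sufu*, *Ccnd1*, *Bmp4*, *Csnk1a1*, *Grk2*, *Evc2*, *Tbx4*, *Tbx5*, the listed epithelial markers and the genes overlapping members were named after their values were seen. Positions are from GENCODE M21 (14723 of 14732 identifiers found) and promoters from RefSeq, GRCm38.p6. Some results are not reported here.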

Additional observations from a re-analysis of the deposited data

How the results depend on the processing

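The number of members past the adjusted threshold was 0 under all alternatives. At an unadjusted *P* under 0.05, limma gave 3 members with all pools and 0 without control replicate 3. It gave 1 without control replicate 5, mutant replicate 4 or mutant replicate 5, 2 without mutant replicate 1, and 4 without mutant replicate 3. The quasi-likelihood and likelihood ratio tests of edgeR without a replicate block each gave 2. *Ptch1*, *Gli1* and *Hhip* kept a positive value under each alternative that tested them (*Hhip* lies below the filter of 5 CPM). Among all genes, limma called 0, with 1187 at an unadjusted *P* under 0.05, and edgeR's quasi-likelihood test 0. The count was 1 with a constant of 0.1, 105 with edgeR's likelihood ratio test, 88 with DESeq2, 6 with the Y-linked covariate, and 0 to 13 with a pool left out (13 without control replicate 4). For the wider Hedgehog genes, the likelihood ratio test with and without the block and DESeq2 each called 1, *Foxf1*. With the replicate block, limma called 14, the quasi-likelihood test 13 and the likelihood ratio test 118 genes. Same-numbered pools did not deviate together (correlations -0.008, -0.118 and -0.002), but these correlations cannot decide whether the numbers pair the pools. The log2 fold change that the paper gives for *Gata6* is that of the blocked edgeR fits. Mutant replicate 1 has no control of its number. The blocked limma values were thus those found without that pool, such as 0.70 for *Gli1* and 0.20 for *Ptch1*. With the block, *Gata6* was -0.42 in all 3 fits and passed the threshold in the likelihood ratio test (adjusted *P*=0.0165), and *Barx1* passed in limma (adjusted *P*=0.0388) and in the quasi-likelihood test (adjusted *P*=0.047). Under the replicate block, *Gli2* turned to -0.045, -0.046 and -0.046 in these fits. The Y-linked covariate turned *Smo* to -0.013, *Gli2* to -0.10, *Gas1* to -0.081 and *Boc* to -0.062. With a pool left out, *Smo* ranged from -0.0024 to 0.084, *Gli2* from -0.047 to 0.092, *Gli3* from -0.096 to 0.070 and *Gas1* from -0.025 to 0.071. The cause was not tested. Few reads limit *Hhip*. With 3 against 4 pools, the exact permutation test used here, which doubles the smaller tail, cannot give a *P* below 0.0571.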
